A study of Mus musculus with 6 samples.

Results

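Heat-shock proteins and chaperones were described in RNA-seq data from Ly6C Low macrophages (MPs) of injured mouse muscle. The group holds 46 genes out of the 13008 in the deposited table, taken by symbol, and all 46 were found. It covers the HSP70, HSP110, HSP90, small HSP, HSP60 and HSP10, and HSP40 families, the co-chaperones of HSP70 and HSP90, the chaperonin CCT and the heat-shock factors. These genes were chosen by their Control and Cripto KO values in the same 6 samples, so the differences between the groups are given as a description, and nothing is read from their p-values in the fit over all genes. The group was labelled as cytosolic, and that label does not cover all of it. The products of 4 members (Hspa9, Hspd1, Hspe1 and Dnaja3) work in mitochondria, and that of Hspa13 is bound to the endoplasmic reticulum.

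Per the study, MPs were sorted as GFP+/F4/80+/Ly6C Low cells. They came from muscles of male C57BL/6J mice aged 3 months, with 3 Control and 3 Cripto KO samples, on day 5 after injection of cardiotoxin, a toxin that kills muscle fibers. The genotype of the Cripto KO mice is Tg:LysMCre::Cripto-/-, in which the Cre recombinase is driven by lysozyme M in the myeloid lineage, so deletion is limited to cells in which this promoter has been active. The Control mice are labelled wild type. By contrast, the methods of the study describe a Cre reporter, R26mTmG, in both groups, with GFP-Control mice carrying Tg:LysMCre without the floxed Cripto alleles, so that GFP marks cells in which Cre has been active. Muscles of both groups were dissociated with enzymes in a shaking bath before the sort.

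Chaperones bind unfolded proteins and help them to fold, to assemble or to be degraded. Under heat or other protein damage, the transcription factor HSF1 forms trimers and binds heat-shock elements, which are repeats of short inverted units in promoters, and induces a core of these genes. Several families hold inducible members beside constitutive relatives that are made at a steady level in unstressed cells, and in MPs the inducible forms have been linked to the control of inflammatory signaling.

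The values are normalized read counts, as reads plus 0.5, scaled to 1000000 reads of the normalized library, over total reads of 12688968 to 15659847 per sample. The MP markers Adgre1 (1065 to 1384), Csf1r (1566 to 1815) and Cd68 (1420.1 to 1734) were high in all 6 samples. Of the neutrophil markers, S100a9 had 0 reads in each sample, S100a8 was 0.694 to 1.55 and Mmp8 was 6.52 to 10.1. Control replicates 1 and 2 stood apart in single genes. Control replicate 1 had a value of 171 for Xist, against 0.114 to 0.885 elsewhere, although all mice are labelled male. Control replicate 2 had 11066 for Lyz2, against 21.2 to 28.3 elsewhere. Lyz2 is also on the list of MP markers used here, so this marker was high in Control replicate 2 only. How the values of Xist and Lyz2 relate to the labels of the mice was not tested. Tdgf1, which encodes Cripto, was not analysed here. The study describes the samples of a group as biological replicates, and the labels do not tie each to 1 mouse. Values are listed below in the order of replicates 1, 2 and 3 as numbered in the deposited table, and log2 fold changes are Cripto KO minus Control, positive where Cripto KO was higher, on the log2 scale of the deposited values with the limma standard error (SE).

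The promoter sequences are shown first, because the heat-shock element is what the inducible genes are known to share. Promoters, from 250 bases before to 50 bases after the annotated start, were taken from RefSeq (GRCm38.p6), and 38 of the 46 members had an entry. Cct4, Hsf1, Hsp90aa1, Hsp90ab1, Hspa13, Hspa8, Hspa9 and St13 are named only. The element was searched on both strands as GAANNTTCNNGAA, with TTCNNGAANNTTC as its other strand, where N is any base, which leaves 9 fixed letters in 3 units. All 9 letters were matched in 5 of the 38 members (13.2%) and in 179 of 27025 genes (0.662%). These 5 are Chordc1, Dnajb6, Hspd1, Hspe1 and Hsph1, and their windows of 30 bases are given with the element in capitals, beside the 8-letter match of Hspb1:
Hsph1 (chr5:149636279-149636308, minus strand): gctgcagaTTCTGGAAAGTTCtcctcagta
Hspd1 (chr1:55088055-55088084, minus strand): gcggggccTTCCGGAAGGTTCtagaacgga
Hspe1 (chr1:55088051-55088080, plus strand): acggtccgTTCTAGAACCTTCcggaaggcc
Chordc1 (chr9:18292255-18292284, plus strand): tgcaaccgGAACGTTCGGGAAaattcctga
Dnajb6 (chr5:29735844-29735873, plus strand): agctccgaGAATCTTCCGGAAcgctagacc
Hspb1 (chr5:135887794-135887823, plus strand): caacaagaGAAGTTTCCAGATgggggcaga

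Hspd1 and Hspe1 lie head to head on chromosome 1, and the windows of the pair overlap, each read from the strand of its gene. At least 8 of the 9 letters were matched in 18 of the 38 members (47.4%) and in 8.15% of all genes. The shorter form of 2 units, GAANNTTC or TTCNNGAA, which is part of the longer one, was found in 18 of the 38 members (47.4%) and in 17% of genes. The TATA box TATAAA was found in 1 of the 38 members (2.63%) and in 15.7% of genes. These are matches of letters and not sites of binding.

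The inducible HSP70 genes Hspa1a and Hspa1b lie next to each other on chromosome 17, and the 250 bases before their starts are shown because this pair took more reads than any other member. The capitals mark the 2-unit match of each:
Hspa1a (chr17:34972157-34972406, minus strand): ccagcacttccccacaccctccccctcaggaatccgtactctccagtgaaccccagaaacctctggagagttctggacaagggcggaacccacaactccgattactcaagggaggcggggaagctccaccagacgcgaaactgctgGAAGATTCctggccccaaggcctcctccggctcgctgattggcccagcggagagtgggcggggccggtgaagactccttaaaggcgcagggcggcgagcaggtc
Hspa1b (chr17:34959239-34959488, minus strand): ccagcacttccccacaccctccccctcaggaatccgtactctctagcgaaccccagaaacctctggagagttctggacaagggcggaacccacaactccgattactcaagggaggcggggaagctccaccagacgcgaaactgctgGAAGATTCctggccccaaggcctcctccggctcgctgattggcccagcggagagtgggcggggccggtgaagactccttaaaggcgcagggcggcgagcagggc
These stretches differ at 3 positions, C44T, T47C and T249G, counted from 1 at the 5′ end with the base of Hspa1a first.

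Across the 46 members, most genes of the inducible core were higher in Cripto KO MPs and most of the others were slightly lower. Every Cripto KO sample was above every Control sample in 12 members (26.1%), against 6.43% of all genes. These were Hspa1a, Hspa1b, Hsph1, Hsp90aa1, Hsp90ab1, Hspb1, Hspd1, Hspe1, Dnaja1, Dnaja4, Dnajb1 and Bag3. Every Cripto KO sample was below every Control sample in 5 members (10.9%), namely Fkbp5, Hspa2, Hspa13, Bag1 and Hsf1, against 8.02% of all genes. The groups overlapped in the remaining 29. Since the members were chosen on this contrast, nothing is read from these shares. The median log2 fold change was -0.030 over the members and -0.011 over all genes. Of the members, 17 were higher and 29 lower, beside 6169 and 6839 of all genes. Among the 3132 genes with a mean value of at least 50, 997 were higher and 2135 lower, with a median of -0.050. Without overlap, 4.31% of these 3132 genes were higher and 13.9% lower. The HSF1-inducible core was listed as 16 members: Hspa1a, Hspa1b, Hspa8, Hsph1, Hsp90aa1, Hspb1, Hspd1, Hspe1, Dnaja1, Dnajb1, Dnajb4, Bag3, Stip1, Ahsa1, Chordc1 and Fkbp4. Hspa8 is counted there although it is mostly made constitutively. Over these 16 the median was 0.32, with 11 higher and 10 without overlap. Over the other 30 members it was -0.071, and 24 of them were lower. The core was listed with earlier results of these data known, so nothing is read from this split.

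In the limma fit over all genes, no member had an adjusted p-value under 0.05 (17 of 13008 genes, 0.131%). At an unadjusted p-value under 0.05, there were 11 members higher (3.99% of all genes) and 5 lower (4.6%). Among the 3132 genes with a mean value of at least 50, 102 were higher and 273 lower at that threshold. edgeR called 0 members at the adjusted threshold (0.131% of all genes) and DESeq2 called 6 (0.547%), which were Hsph1, Hsp90aa1, Hspa1a, Hspa1b, Hspd1 and Dnaja1. As the same contrast chose the members, these counts are given beside those of all genes and nothing is read from them. In bulk RNA, fewer cells of a type and less RNA per cell cannot be told apart. Markers of fibroblasts moved with the groups: 11 of the 11 were higher in Cripto KO MPs, 7 without overlap, with a summed value of 875 to 955 in Control MPs and 1015 to 1109 in Cripto KO MPs. Of these markers, none was at 0 reads in any sample, Col1a1 was 191 to 244, and Pdgfra was 0.405 to 1.21. Their part in the differences of the chaperones was not tested. The summed markers of muscle fibers and myogenic cells were 37.7 to 78.8 in Control MPs and 20.2 to 59.7 in Cripto KO MPs. Those of endothelial cells were 65.7 to 74.3 in Control MPs and 66.4 to 74.4 in Cripto KO MPs. Those of neutrophils were 8.32 to 11.6 in Control MPs and 10.4 to 13.5 in Cripto KO MPs. Those of lymphocytes were 80.7 to 106 in Control MPs and 71.2 to 85.7 in Cripto KO MPs, and all these sums overlapped. Only 4 of the 11 lymphocyte markers listed had values, with Cd3e, Cd3g, Cd8a, Ms4a1, Ncr1, Nkg7 and Gzma absent. Most of the lymphocyte sum was Cd4, at 74.6 to 95.1 in Control MPs and 62.3 to 77.6 in Cripto KO MPs. By log2 fold change, the genes with a mean of at least 1 that differed most in these lists were Dcn (0.43) and Fbln2 (0.35) of fibroblasts, Myh4 (-3.58) and Ckm (-1.71) of muscle, Esam (0.40) and Kdr (-0.39) of endothelial cells, S100a8 (0.52) and Mmp8 (0.12) of neutrophils, Cd4 (-0.29) and Cd79b (0.027) of lymphocytes, and Lyz2 (-2.85) and Aif1 (-0.16) of MPs.

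**Figure D1:**
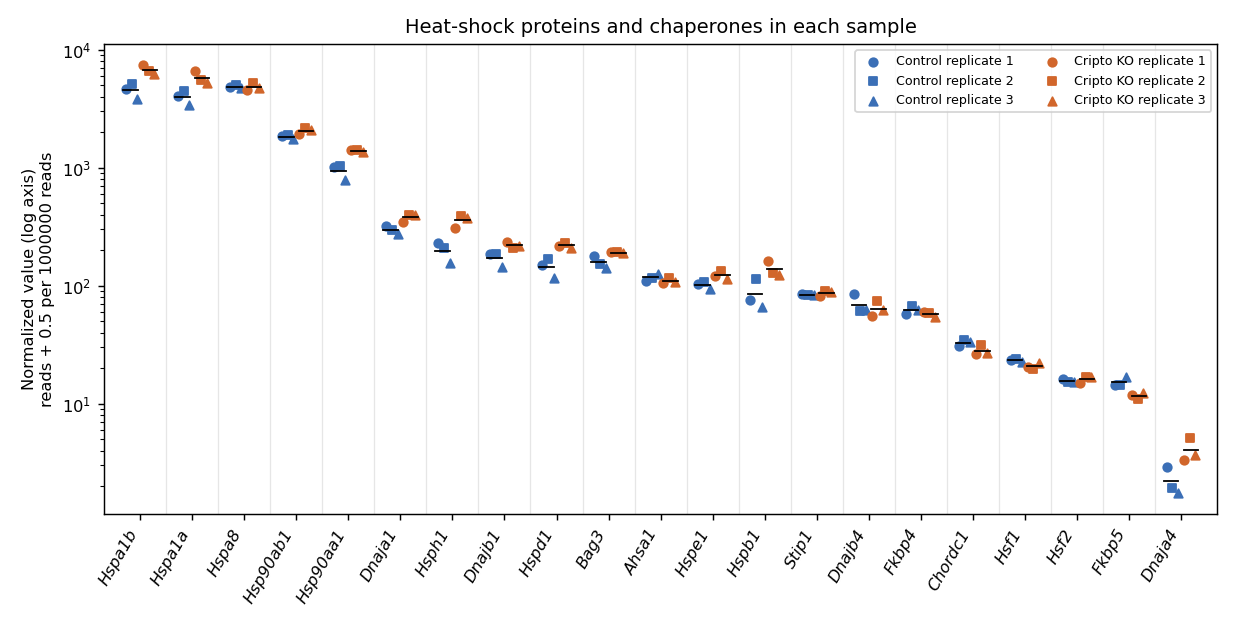
Normalized value (log axis) of the 21 members chosen for values in every sample, ordered by their mean, with blue points for the 3 Control and orange points for the 3 Cripto KO samples and black lines for the group means. Hspa1a and Hspa1b, the highest of the inducible members, are separated between the groups, while the constitutive Hspa8 lies level beside them.

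HSP70 proteins bind short hydrophobic stretches of unfolded clients in cycles of ATP hydrolysis. Hspa1b, at chr17:34956436-34959238, was 4668, 5099 and 3806 in Control MPs, and 7346, 6573 and 6242 in Cripto KO MPs. Its near-identical neighbour Hspa1a, at chr17:34969190-34972156, was 4034, 4419 and 3419 in Control MPs, and 6599.7, 5511 and 5172 in Cripto KO MPs. Both were lowest in Control replicate 3 and highest in Cripto KO replicate 1, with no overlap between the groups. The means of Hspa1b were 4524 ± 658 in Control MPs and 6720.3 ± 567 in Cripto KO MPs (SD, n = 3), a log2 fold change of 0.58 (SE 0.13), and the difference of Hspa1a was 0.54 (SE 0.13). The transcripts of the pair share most of their sequence: 65.4% of the 31-base words of Hspa1a and 68.0% of those of Hspa1b are found in another gene, nearly all in each other, so how reads were divided between them is uncertain. Their sum does not depend on that division, and was 8702, 9517 and 7225 in Control MPs, and 13946, 12083 and 11414 in Cripto KO MPs, with a log2 fold change of 0.56 (SE 0.14). The share of all reads taken by the pair was 0.836%, 0.917% and 0.698% in Control MPs and 1.40%, 1.16% and 1.13% in Cripto KO MPs.

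The mainly constitutive form of HSP70 is Hspa8 (HSC70), which also uncoats clathrin vesicles. It was 4773, 5056 and 4714 in Control MPs, and 4521, 5162 and 4704 in Cripto KO MPs. The groups overlapped, and the log2 fold change was -0.017 (SE 0.10) with a 95% interval of -0.24 to 0.20. Of its 31-base words, 43.5% are shared with other genes, most of these with Gm15459. The mitochondrial Hspa9 (mortalin), at 141, 140.4 and 136 against 132, 143 and 139.9, differed by -0.0095 (SE 0.062). Hspa14, which sits on ribosomes, was 31.8, 28.0 and 29.1 against 26.3, 30.8 and 24.2 and overlapped between the groups.

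Both members of HSP70 without overlap in the other direction were of low level. Hspa13 was 26.3, 24.3 and 23.0 against 20.3, 20.8 and 20.6, a log2 fold change of -0.25 (SE 0.092), and Hspa2, best known from the testis, was 14.3, 14.5 and 12.9 against 11.9, 11.5 and 10.9, a log2 fold change of -0.28 (SE 0.11). Over the 7 members of HSP70, 2 were higher and 5 lower, with a median of -0.017.

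HSP110 proteins are large relatives of HSP70 that act as its nucleotide exchange factors. Hsph1 (HSP105), at chr5:149614287-149636376 and with no shared 31-base words, was 228, 208 and 156 in Control MPs, and 308, 386 and 377 in Cripto KO MPs. All 3 Cripto KO values lay above all Control values, and the lowest was again Control replicate 3. The means were 197 ± 37.3 in Control MPs and 357 ± 42.7 in Cripto KO MPs (SD, n = 3), and the log2 fold change of 0.87 (SE 0.14) was the second highest of the members, after Dnaja4. Its relatives were not higher in Cripto KO MPs. Hspa4 was 202, 179 and 171 against 143, 177 and 180.3, with a log2 fold change of -0.14 (SE 0.10), and Hspa4l was 19.5, 21.8 and 18.6 against 15.5, 21.0 and 17.6, with -0.15 (SE 0.13). Both were lowest in Cripto KO replicate 1, and both overlapped between the groups.

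HSP90 holds clients such as kinases and steroid receptors close to their active state. The inducible Hsp90aa1 was 1012, 1028 and 778 in Control MPs, and 1405, 1398 and 1360.2 in Cripto KO MPs. Its Cripto KO values lay within a narrow range, above all Control values, with means of 939 ± 139.9 in Control MPs and 1388 ± 24.2 in Cripto KO MPs (SD, n = 3) and a log2 fold change of 0.57 (SE 0.11). The constitutive Hsp90ab1 was 1863, 1888 and 1736 in Control MPs, and 1919, 2166 and 2094 in Cripto KO MPs. Its groups did not overlap, but Cripto KO replicate 1 was only slightly above the highest Control sample, and the log2 fold change was 0.17 (SE 0.082). Other genes hold 51.4% of the words of Hsp90aa1, most of these in Gm12346, and 13.2% of those of Hsp90ab1.

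Hspb1 (HSP25), the small HSP of the group, keeps unfolded proteins from aggregating without ATP and binds actin filaments. It was 75.7, 113 and 65.4 in Control MPs, and 163, 128 and 124 in Cripto KO MPs. The Control samples were widely spread, with replicate 2 near the Cripto KO samples, yet there was no overlap, and the log2 fold change was 0.73 (SE 0.19). Without Control replicate 2 it was 0.96, and without Control replicate 3 it was 0.57. Of its words, 52.3% are also found in the copy Hsp25-ps1, which was 7.99, 4.96 and 7.39 against 6.13, 3.08 and 9.41 in the same table.

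Hspd1 (HSP60) and Hspe1 (HSP10) are the barrel and the lid of the mitochondrial chaperonin. Hspd1, at chr1:55077835-55088243, was 149, 169 and 115 in Control MPs, and 218, 230.4 and 209 in Cripto KO MPs. Hspe1, at chr1:55088132-55091307, was 104, 107 and 93.9 in Control MPs, and 120.2, 133 and 115 in Cripto KO MPs. In both, all Cripto KO samples were above all Control samples, Control replicate 3 was lowest and Cripto KO replicate 2 highest. The differences were unequal, with a log2 fold change of 0.62 (SE 0.13) for Hspd1 and 0.27 (SE 0.081) for Hspe1, and the ratio of Hspd1 to Hspe1 was 1.44, 1.58 and 1.23 in Control MPs, and 1.82, 1.73 and 1.82 in Cripto KO MPs. Of the words of Hspd1, 50.1% are shared with other genes, most of these with Hspd1-ps3, and of those of Hspe1, 24.8%.

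**Figure D2:**
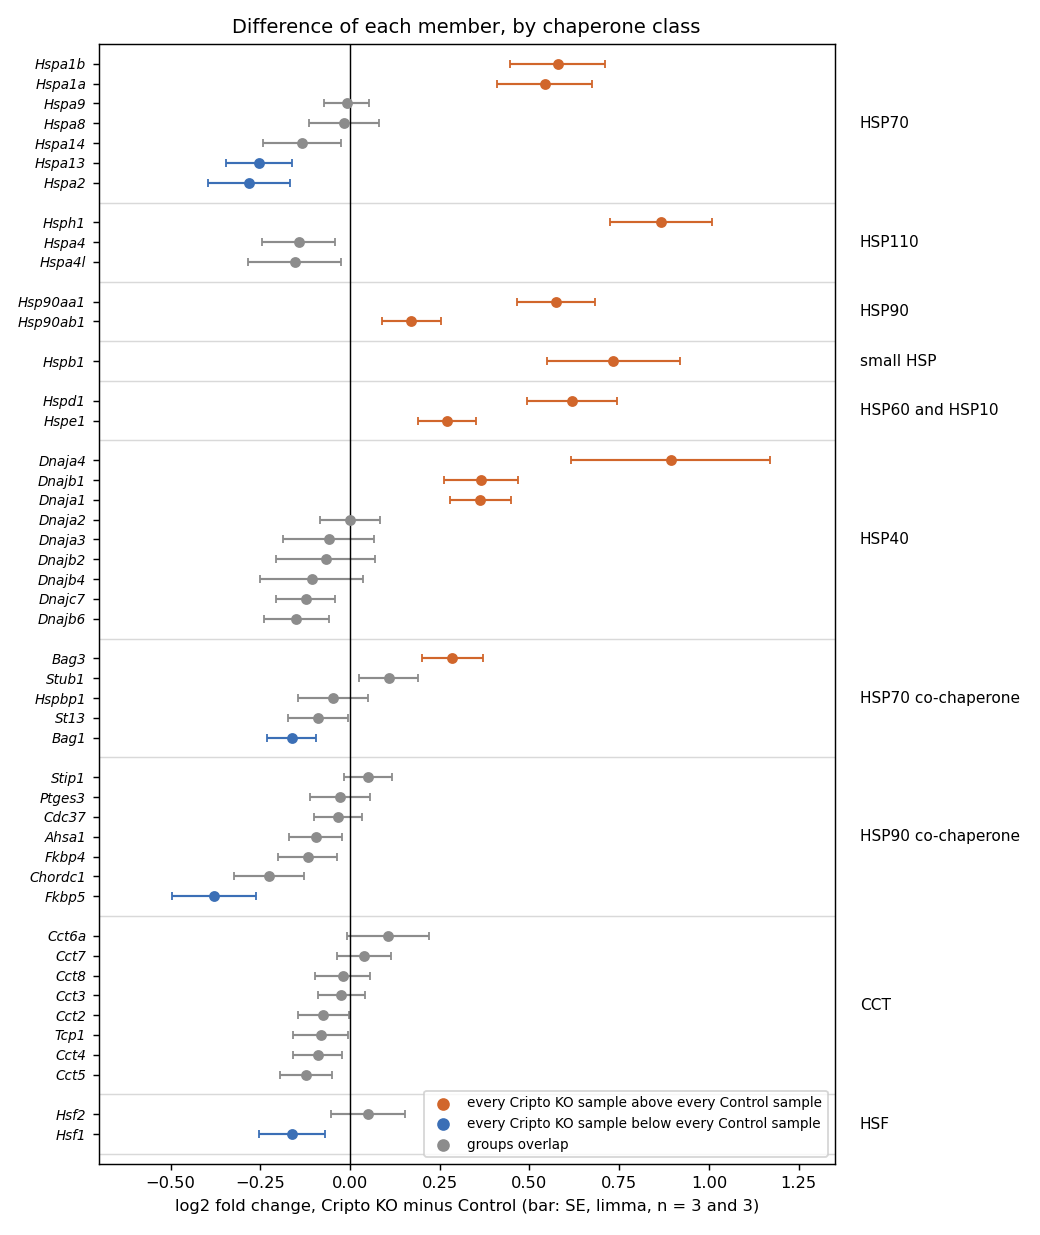
Log2 fold change (Cripto KO minus Control, bars for the limma SE, n = 3 and 3) of the 46 members by class, with orange for members whose Cripto KO samples all lay above the Control samples, blue for the reverse and grey for overlap. Orange points occur in 7 of the 10 classes and none of them is among the 8 CCT subunits.

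HSP40 proteins carry a J domain that stimulates the ATPase of HSP70 and bring clients to it. Dnajb1 (HDJ1), the main inducible form, was 184, 186 and 144 in Control MPs, and 234, 209 and 215 in Cripto KO MPs, with a log2 fold change of 0.37 (SE 0.10). Dnaja1 was 321, 295 and 273 in Control MPs, and 346, 399.6 and 398 in Cripto KO MPs, with a log2 fold change of 0.36 (SE 0.085). In both, the groups were separate and Control replicate 3 was lowest. Of the words of Dnaja1, 13.4% are shared, mainly with Gm15542, which was 83.4, 71.7 and 67.2 against 72.0, 112 and 99.0 in the same order.

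Dnaja4 was the member with the lowest level and the widest difference. It was 2.91, 1.93 and 1.75 in Control MPs, and 3.33, 5.13 and 3.69 in Cripto KO MPs. These values rest on 21 to 72 reads, and although the groups did not overlap, the log2 fold change of 0.89 (SE 0.28) had the largest SE of all members. The other 6 members of HSP40 overlapped between the groups. Among these was Dnajb4, a member of the inducible core, at 84.2, 61.0 and 61.7 in Control MPs, and 55.3, 73.7 and 62.3 in Cripto KO MPs, where Control replicate 1 was highest and Cripto KO replicate 1 lowest. Dnaja2 was 150.3, 141 and 128 against 128, 149 and 143, level between the groups with a 95% interval of -0.19 to 0.19, and Dnajb6, which suppresses aggregation, was 203, 176 and 176 against 149, 182 and 169.8. The mitochondrial Dnaja3 had a log2 fold change of -0.060 (SE 0.13), Dnajb2 of -0.068 (SE 0.14) and Dnajc7, which bridges HSP70 and HSP90, of -0.12 (SE 0.082).

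Co-chaperones set the timing and the outcome of the HSP70 cycle. Bag3, which exchanges the nucleotide of HSP70 and directs clients to autophagy, was 177, 151 and 142 in Control MPs, and 192, 191 and 188 in Cripto KO MPs. Its Cripto KO samples were close together and above all Control samples, with a log2 fold change of 0.29 (SE 0.085). Its relative Bag1, which links HSP70 to the proteasome, went the other way at 142, 157 and 157 against 129, 139.8 and 138, with a log2 fold change of -0.16 (SE 0.069). The other 3 overlapped: the ubiquitin ligase Stub1 (CHIP) differed by 0.11 (SE 0.083), Hspbp1 by -0.048 (SE 0.10) and St13 (HIP) by -0.088 (SE 0.083).

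None of the 7 co-chaperones of HSP90 was higher in Cripto KO MPs without overlap, and 6 had a negative log2 fold change. Fkbp5 (FKBP51), which lowers the hormone affinity of the glucocorticoid receptor and is itself induced by glucocorticoids, was 14.4, 14.4 and 16.7 in Control MPs, and 11.8, 10.9 and 12.2 in Cripto KO MPs. Its groups were separate, with a log2 fold change of -0.38 (SE 0.12), the lowest of the members. The related Fkbp4 (FKBP52) was 57.2, 66.9 and 62.2 in Control MPs, and 59.5, 58.2 and 53.9 in Cripto KO MPs and overlapped.

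Of the other HSP90 co-chaperones in the inducible core, Stip1 (HOP), which hands clients from HSP70 to HSP90, was 84.7, 83.2 and 83.1 in Control MPs, and 81.7, 90.2 and 88.2 in Cripto KO MPs. The ATPase activator Ahsa1 was 110.0, 116 and 125 in Control MPs, and 105, 116 and 108 in Cripto KO MPs. Chordc1 was 30.9, 34.2 and 33.2 in Control MPs, and 26.1, 31.3 and 26.9 in Cripto KO MPs. All 3 overlapped between the groups, with log2 fold changes of 0.050 (SE 0.067), -0.10 (SE 0.074) and -0.22 (SE 0.10). The kinase loader Cdc37 differed by -0.033 (SE 0.066) and Ptges3 (p23) by -0.027 (SE 0.083).

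The chaperonin CCT, a ring complex that folds actin and tubulin, showed no separation. The groups overlapped in all 8 subunits measured, and their log2 fold changes ran from -0.12 for Cct5 to 0.11 for Cct6a, with a median of -0.049. Their summed value was 978, 1096 and 1063 in Control MPs, and 971, 1049 and 1009 in Cripto KO MPs. The sum was lowest in Cripto KO replicate 1 and highest in Control replicate 2. Per kilobase of the longest coding transcript in GENCODE release 21, the mean level over the 6 samples ran from 43.9 for Cct3 to 89.8 for Cct5 over 7 subunits. Cct6a was left out, since the annotation used types none of its transcripts as coding.

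The transcription factors of the response differed little. Hsf1, the inducer, was 23.4, 24.0 and 22.6 in Control MPs, and 20.6, 19.8 and 22.2 in Cripto KO MPs. Its Cripto KO samples were all below the Control samples, with a log2 fold change of -0.16 (SE 0.091). Hsf2, its relative with roles in development, was 16.1, 15.3 and 15.4 in Control MPs, and 15.0, 16.7 and 16.9 in Cripto KO MPs and overlapped, with a log2 fold change of 0.051 (SE 0.10).

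Compared per kilobase, the levels of the members spanned a wide range. As the mean over all 6 samples, the highest were Hspa8 at 2014, Hspa1b at 2006, Hspa1a at 1638, Hsp90ab1 at 772 and Hsp90aa1 at 355 normalized reads per kilobase, and the lowest was Dnaja4 at 1.04. The order at the top was not the same in both groups, with Hspa8 at 2025 and Hspa1b at 1614 in Control MPs, and Hspa8 at 2003 and Hspa1b at 2398 in Cripto KO MPs. The 46 members took 1.97%, 2.09% and 1.78% of all reads in Control MPs and 2.62%, 2.45% and 2.38% in Cripto KO MPs. All Cripto KO shares were above all Control shares.

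Ratios within a sample compare an inducible member with a relative and are unaffected by the scaling of the library. The ratio of Hspa1a plus Hspa1b to Hspa8 was 1.82, 1.88 and 1.53 in Control MPs, and 3.08, 2.34 and 2.43 in Cripto KO MPs, and its means differed 1.50-fold. Hsph1 to Hspa4 was 1.13, 1.16 and 0.914 in Control MPs, and 2.15, 2.17 and 2.09 in Cripto KO MPs, 2.00-fold between the means. The Cripto KO values of this ratio were close together and all above the Control values. Hsp90aa1 to Hsp90ab1 was 0.543, 0.544 and 0.448 in Control MPs, and 0.732, 0.646 and 0.650 in Cripto KO MPs, and Hspd1 to Hspa9 was 1.06, 1.21 and 0.845 in Control MPs, and 1.65, 1.62 and 1.49 in Cripto KO MPs. Dnajb1 to Dnajb6 was 0.909, 1.05 and 0.817 in Control MPs, and 1.57, 1.15 and 1.27 in Cripto KO MPs. In all 5 ratios, every Cripto KO sample was above every Control sample and Control replicate 3 was the lowest sample. The inducible members in these ratios were already listed as higher without overlap, and Control replicate 3 was lowest in each. This outcome was therefore largely set by the choice of members, and nothing is read from it. The ratio of Hspa1b to Hspa1a, between neighbours that are both inducible, was 1.16, 1.15 and 1.11 in Control MPs, and 1.11, 1.19 and 1.21 in Cripto KO MPs and overlapped.

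**Figure D3:**
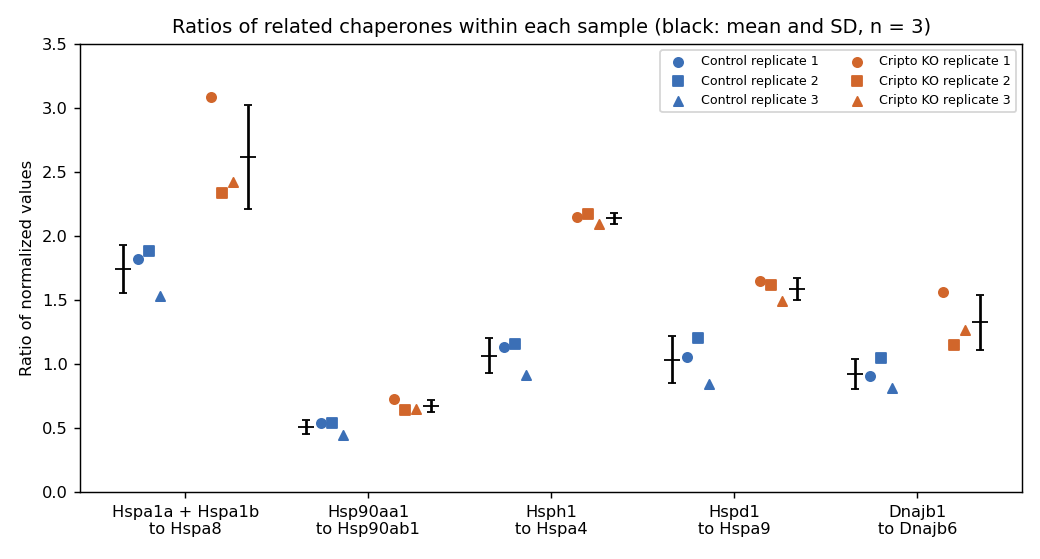
Ratios of the normalized values of inducible members to relatives of their class (for Hspd1, to the mitochondrial Hspa9) in each sample, with Control in blue, Cripto KO in orange and black bars for the mean and SD (n = 3). Hsph1 to Hspa4 shows the widest gap between the groups, 0.914 to 1.16 against 2.09 to 2.17.

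The samples of a group were not alike in these genes. Control replicate 3 was the lowest of the 6 samples in all 12 members that were higher in Cripto KO MPs without overlap, whereas the highest was Cripto KO replicate 1 in 6 of them and Cripto KO replicate 2 in the other 6. Without Control replicate 3, the log2 fold change was 0.44 for Hspa1a, 0.46 for Hspa1b, 0.71 for Hsph1, 0.44 for Hsp90aa1 and 0.46 for Hspd1. Leaving out each sample in turn, including the Control replicates with high Xist or Lyz2, gave 0.71 to 0.98 for Hsph1, 0.57 to 0.96 for Hspb1 and 0.22 to 0.38 for Bag3. Because these members were taken as those without overlap, leaving out a sample cannot change their direction. Cripto KO replicate 1 was the lowest sample in 20 of the 46 members, which by definition cannot include any of those 12.

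**Figure D4:**
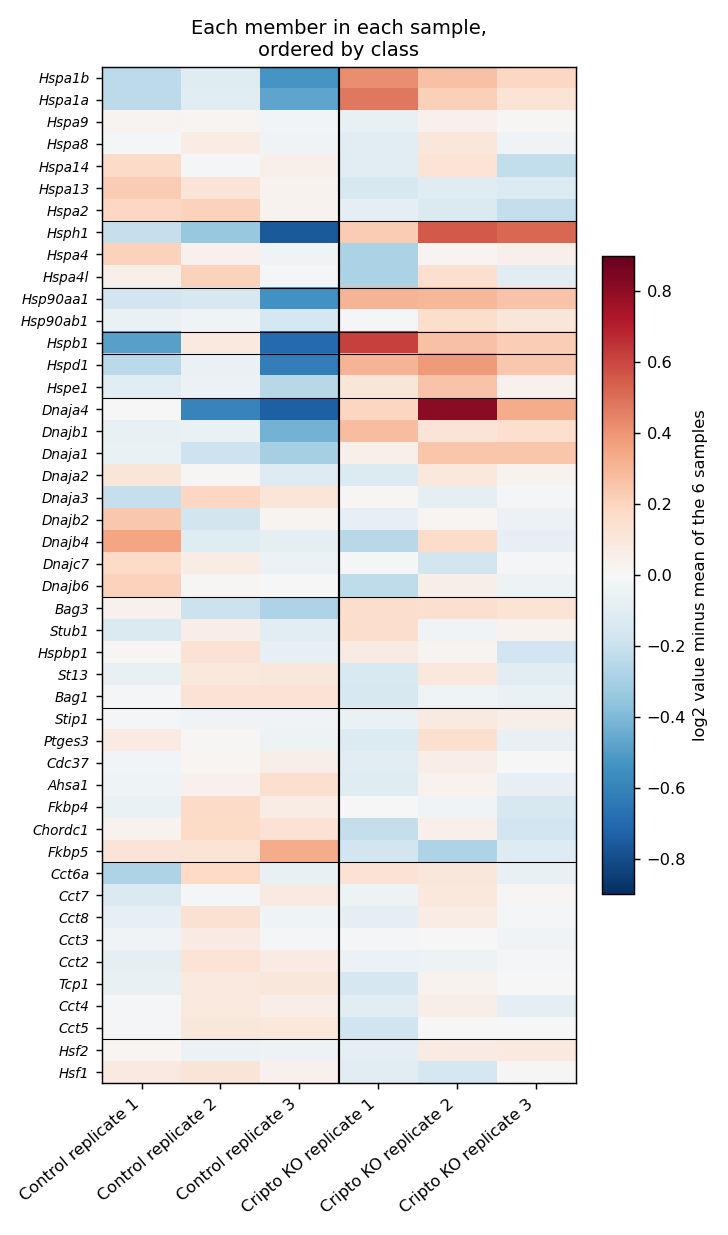
Log2 value of each member in each sample minus its mean over the 6 samples, with red for higher and blue for lower values and lines between the classes. Control replicate 3 is the bluest column in the 12 members whose Cripto KO samples all lay above the Control samples. The rows of CCT are pale throughout.

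The members without overlap were compared with the promoter matches. All 9 letters were matched in 5 members, of which 3 (Hsph1, Hspd1 and Hspe1) were higher in Cripto KO MPs without overlap, while Chordc1 and Dnajb6 were lower with overlap. With 8 letters, 5 of 13 members were higher without overlap, namely Hspa1a, Hspa1b, Hspb1, Dnaja1 and Dnaja4. With 7 letters or fewer, 2 of 20 were, Dnajb1 and Bag3. Over the same sets, 0, 0 and 3 members were lower without overlap. Of all genes in the table with a promoter entry, 8 of 56 (14.3%) with 9 letters were higher without overlap. With 8 letters they were 37 of 570 (6.49%), and with 7 or fewer 557 of 8920 (6.24%). Those lower without overlap were 6 (10.7%), 47 (8.25%) and 721 (8.08%) in the same order. The median log2 fold changes were 0.27, -0.027 and -0.054 over the members, beside -0.012, -0.028 and -0.011 over all genes. The members were chosen on this contrast, so nothing is read from these counts. A window of 300 bases leaves out elements that lie farther from the start, and no match in it says nothing about HSF1.

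**Figure D5:**
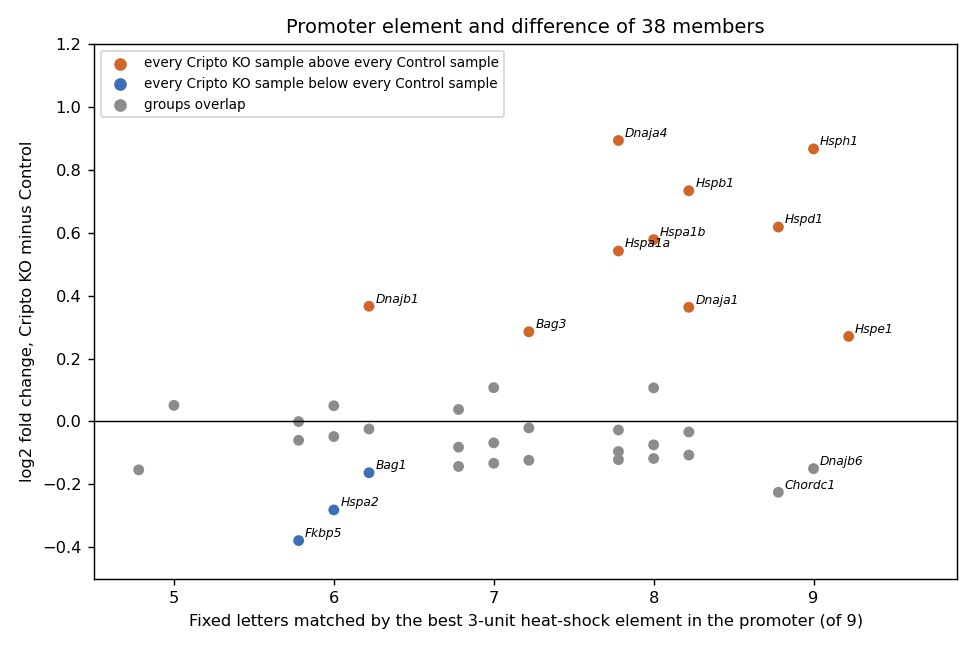
Log2 fold change (Cripto KO minus Control) of the 38 members with a RefSeq promoter, by the number of fixed letters, of 9, that the best 3-unit heat-shock element in the promoter matched; points are spread sideways for legibility. Of the 10 orange members, whose Cripto KO samples all lay above the Control samples, 8 had a match of 8 or 9 letters, as had 18 of all 38 members (47.4%). The members were chosen on this contrast, so nothing is read from these counts.

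Other chaperone and stress genes, listed with earlier results of these data known, were read from the same fit. Of all genes, 6.43% were higher and 8.02% lower without overlap, and nothing is read from the counts of these lists. A further list held 41 chaperones and co-chaperones in the table, most of them cytosolic, with Trap1, Clpb and Dnajc11 of mitochondria and Dnajb12 and Dnajb14 of the endoplasmic reticulum among them. Of these, 0 were higher in Cripto KO MPs without overlap and 3 were lower, with a median of -0.0037, and 0 had an unadjusted p-value under 0.05 in limma. The widest differences were those of the small HSP Cryab, at 2.02, 2.91 and 2.82 against 1.62, 0.602 and 2.38, and of Sgtb, at 1.44, 1.85 and 2.41 against 1.81, 3.93 and 2.31, and both overlapped. Of the 6 subunits of prefoldin, which passes actin and tubulin to CCT, 2 were lower without overlap (Pfdn5 and Pfdn6) and the median was -0.062.

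Among 14 heat-shock targets listed as no chaperones, 5 were higher and 9 lower, with a median of -0.039. The lists are not separate, since Hspbap1 was also in the further list of chaperones and co-chaperones, and Atf3 also among the immediate-early genes below. At an unadjusted p-value under 0.05, 2 were higher and 3 lower, and none passed after adjustment. Hmox1, which degrades heme, was 2557, 1734 and 2260.3 in Control MPs, and 3073, 3009 and 2942 in Cripto KO MPs, and its groups did not overlap (log2 fold change 0.48 (SE 0.13), limma adjusted p = 0.415). The inositol transporter Slc5a3 was 12.6, 12.2 and 13.7 in Control MPs, and 15.0, 23.2 and 23.1 in Cripto KO MPs (log2 fold change 0.64 (SE 0.17), limma adjusted p = 0.407). Hmox1 is also a target of other stress pathways.

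The chaperones of the endoplasmic reticulum, which are under the control of the unfolded protein response, were mostly lower in Cripto KO MPs. Of 14 genes, 13 were lower, beside 6839 of all 13008 genes and 2135 of the 3132 genes with a mean value of at least 50. Without overlap, 7 were lower, beside 8.02% of all genes and 13.9% of those with a mean value of at least 50. At an unadjusted p-value under 0.05 in limma, 8 were lower, beside 4.6% of all genes and 273 of those 3132. As the list was made with earlier results of these data known, nothing is read from these counts. The median of the 14 was -0.21. The disulfide isomerase Pdia4 was 108, 133 and 130.4 in Control MPs, and 85.4, 77.2 and 84.5 in Cripto KO MPs (log2 fold change -0.59 (SE 0.092), limma adjusted p = 0.0772), and Creld2 was 43.0, 56.7 and 53.5 in Control MPs, and 32.0, 42.2 and 34.0 in Cripto KO MPs (log2 fold change -0.50 (SE 0.13), limma adjusted p = 0.407). None of the 14 passed after adjustment.

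Immediate-early genes, which respond within minutes to stimulation of cells and to tissue dissociation, went both ways. Of 14 such genes, 5 were higher and 9 lower, with a median of -0.034. Without overlap, 1 was higher and 3 were lower, and the summed value was 17354 to 18262 in Control MPs and 17096 to 17886 in Cripto KO MPs. Btg2 was 168, 175 and 144 against 209, 169.9 and 199 and Atf3 was 1368, 1568 and 1504 against 1291, 1304 and 1171. The part of dissociation and handling in the values of the chaperones was not tested.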

How the data were processed

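RNA-seq of sorted Ly6C Low MPs was analysed in 3 Control and 3 Cripto KO samples. Per the submitters' notes and the methods of the study, the authors trimmed reads with Cutadapt 1.7.1, used RSEM 1.2.20 to count reads per gene against transcripts of GRCm38 (release 91), and applied LIMMA for normalization. The deposited values are a normalized signal, and dividing out the value of 1 read gave whole reads in 100% of 78048 values within 0.01.

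Groups were compared with limma 3.58.1 (R 4.3.3; lmFit, eBayes with a trend) on log2 values without a pseudocount, as no value was 0, over all 13008 genes with Benjamini-Hochberg adjustment. edgeR 4.0.16 and DESeq2 1.42.0 were run on the recovered reads. The tests were checked on simulated counts. No label ties the replicates of the 2 groups beyond a shared number, so no block was used. The limma errors and p-values measure the spread between the samples of a group.

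The members and all lists were chosen with earlier results of these data known. Values in every sample are given for the HSF1-inducible core, Hsp90ab1, Hsf1 and Hsf2, and for the 8 members with the largest absolute fold change and the 8 with the smallest p. Of each other list, the 2 genes with the largest change at a mean of at least 1 were named. Hspa2, Hspa13 and Bag1 are shown in full because their groups did not overlap, and Hspa4, Hspa4l, Hspa9, Hspa14, Dnaja2 and Dnajb6 as relatives, after their values were seen. Shared sequence was counted in 31-base words of GENCODE release 21 transcripts. Python 3.11.15 was used with numpy 2.4.6, pandas 2.3.3 and, for plots, matplotlib 3.10.9. Alternatives were pseudocounts of 0.5 and 1, a mean of at least 1, other scalings and tests, the fit without 1 of the samples in turn, and a replicate block.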

Additional observations from a re-analysis of the deposited data

How the results depend on the processing

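The number of members without overlap between the groups and higher in Cripto KO MPs, 12, was 12 after median centring and with TMM-scaled reads, and 13 after quantile normalization, while leaving out a sample cannot lower it. These alternatives were chosen after seeing the data. The number of members with an adjusted p-value under 0.05, 0 in limma, was 1 with the robust option (Hsp90aa1, adjusted p = 0.0475) and 6 with DESeq2. With 1 sample left out it was 0 to 1, and the call was Hsph1 without Control replicate 1 (adjusted p = 0.0307) and Hspb1 without Control replicate 2 (adjusted p = 0.0490). Over all alternatives, the adjusted p of Hsph1 ran from 3.556e-08 to 0.459, that of Hsp90aa1 from 2.801e-05 to 0.518 and that of Hspb1 from 0.0490 to 0.729. Over all genes, 17 calls became 6 after quantile normalization, 5 without the trend, 31 with the robust option, 71 with DESeq2 and 9 with voom, and 5 to 31 with 1 sample left out. Members lower at an unadjusted p-value under 0.05 were 5 in limma, 3 after median centring, after quantile normalization, without the trend, with edgeR and with voom, 1 with DESeq2, and 1 to 3 with 1 sample left out. The median of all members, -0.030, was -0.071 to 0.0012 with 1 sample left out, and above 0 without Control replicate 2 (0.0012) or Cripto KO replicate 1 (0.0004). Class medians also changed sign: HSP40 from -0.060 to 0.045 without Control replicate 1 and 0.0052 without Control replicate 2, HSP70 from -0.017 to 0.023 without Cripto KO replicate 1, and the HSP70 co-chaperones from -0.048 to 0.0069 without Control replicate 2 and 0.027 without Cripto KO replicate 3. The cause of these changes was not tested.

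With the replicate block, 0 members and 2 genes had an adjusted p-value under 0.05. The deviations of same-numbered samples from their group means correlated at -0.158, 0.037 and 0.016 across genes. Those of differently numbered samples ran from -0.160 to 0.127. Such correlations cannot tell whether same-numbered samples were handled together, and the labels give only the number. A supplementary dataset of the study numbers the Control samples in another order than the deposited table. Paired by that order, the correlations were 0.115 for Control replicate 2 with Cripto KO replicate 1, -0.084 for 3 with 2 and 0.127 for 1 with 3, and no fit was made with these pairs. With 3 samples in each group and all values relative to total RNA, the 95% interval of a small difference is wide, and that of Hsp90ab1 was -0.016 to 0.36 on the log2 scale. Members that share at least 50% of their 31-base words with other genes (Hspa1a, Hspa1b, Hsp90aa1, Hspb1 and Hspd1) depend on how the authors' counting divided reads. The same holds in part for members that share fewer, such as Hspa8 (43.5%), Hspe1 (24.8%) and Ptges3 (20.6%).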
